A study of Mus musculus with 6 samples.

Results

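The baseline transcriptome of the mouse lateral amygdala is described here from the 2 control libraries of a 6-library RNA-sequencing series. The libraries were chosen by their label as control, and all 50383 gene identifiers of their expression tables were read, with synthetic spike-in sequences left out. The series holds 3 groups of 2 libraries each, and the remaining groups received a scrambled siRNA or an siRNA against Baf53b, a neuronal subunit of a chromatin-remodelling complex. Those 4 libraries were not analysed here. The control mice were males of a 129xC57BL/6 hybrid strain, 2 to 3 months old. The tissue protocol speaks of 4 mice, and the labels state neither whether a library pools several animals nor what treatment, if any, the control mice received. The spread between the 2 libraries may therefore be technical, biological or both.

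The lateral amygdala is the main sensory entrance of the amygdala, where inputs from thalamus and cortex meet and where synapses onto principal neurons change in strength during auditory fear learning. Its principal neurons are glutamatergic and resemble those of the cortex, and a smaller population of local interneurons uses GABA. The nucleus lies between cortex, claustrum-like nuclei, striatum, the central nucleus and the intercalated cell clusters, all of which can be caught in a tissue sample.

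Levels are given as FPKM, fragments counted per length of transcript and per total of mapped fragments, which corrects for transcript length and for the total of mapped fragments. Levels may therefore be compared between genes of a library, with less certainty for very short genes and for genes with near-identical copies. A gene was counted as detected at 1 FPKM or more in both libraries, and 13802 genes of the retained classes met this limit. Within protein-coding nuclear genes, 12349 genes in replicate 1 and 12223 in replicate 2 reached 1 FPKM, 6644 and 6238 reached 10 FPKM, and 656 and 635 reached 100 FPKM. The most abundant 933 genes in replicate 1 and 816 in replicate 2 made up 50% of the summed protein-coding FPKM. The files hold no read totals, so the depth of each library is unknown. The deposited confidence bounds stand in for it, and their median half-width was 19.3% and 18.0% of the level for genes of 1 to 10 FPKM, 8.26% and 7.73% for 10 to 100 FPKM, and 4.53% and 4.42% for 100 to 1000 FPKM.

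The 2 libraries differed in their overall make-up before any gene is considered. Transcripts of the mitochondrial chromosome took 21.7% of the summed FPKM in replicate 1 and 30.4% in replicate 2 when small RNA genes were left out. Small RNA genes themselves took 10.8% and 2.83% of the sum over all genes. The difference of the median gene, replicate 2 minus replicate 1, was -0.11 on the log2(FPKM + 1) scale. Where a difference between the libraries is called relative to the median difference, this value was subtracted. It was also subtracted from the median differences of gene lists and gene classes, and in counts of genes 2-fold or more apart. All other values and ratios are uncentred.

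Apoe, the lipid-carrying apolipoprotein made largely by astrocytes, was the most abundant nuclear protein-coding transcript. It reached 1413 FPKM in replicate 1 and 1599 in replicate 2, a mean of 1506 ± 132 (SD, n = 2). Its gene lies on the minus strand of chromosome 7 at 19696109 to 19699188 in the annotation of the mm10 build. Ppia, which encodes the prolyl isomerase cyclophilin A, followed with 1276 and 1563 FPKM. Calm2, one of the calmodulin genes, was measured at 1211 and 1600 FPKM.

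Housekeeping genes, neuronal genes and glial genes stood side by side among the 25 most abundant protein-coding transcripts. Translation was represented by the elongation factor Eef1a1, at 1248 and 1328 FPKM, and by 5 ribosomal protein genes, led by Rps29 at 1073.5 and 1398 FPKM and Rplp1 at 1195 and 1214 FPKM. Glycolysis was represented by Gapdh, at 1109 and 761 FPKM, and Aldoa, at 908 and 784 FPKM. Both glycolytic genes were lower in replicate 2, whereas Eef1a1 and Rps29 were higher in it. The translation genes were not uniform, since Rps15, another of the 5, was lower in replicate 2, at 854 and 660 FPKM.

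Neuronal function accounted for several of the remaining places. Camk2a, the alpha subunit of the calcium- and calmodulin-dependent kinase of excitatory synapses, was measured at 1042 and 978 FPKM. Snap25, a SNARE protein of synaptic vesicle fusion, was measured at 798 and 805 FPKM, so that the libraries nearly coincided. Cpe, the carboxypeptidase that trims peptide hormone precursors, reached 1073 and 1258 FPKM.

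Lypd1, a membrane-anchored protein of the Ly6 family that binds nicotinic acetylcholine receptors, was also among the 25, at 1051 and 834 FPKM. Its level was higher than that of every transmitter receptor subunit examined here. Of the 25 genes, 8 exceeded 1000 FPKM in both libraries and 19 belonged to the 25 highest of both. The 25 genes held 6.53% and 7.19% of the protein-coding nuclear FPKM, so no small set of genes dominated the protein-coding nuclear part of either library.

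**Figure D1:**
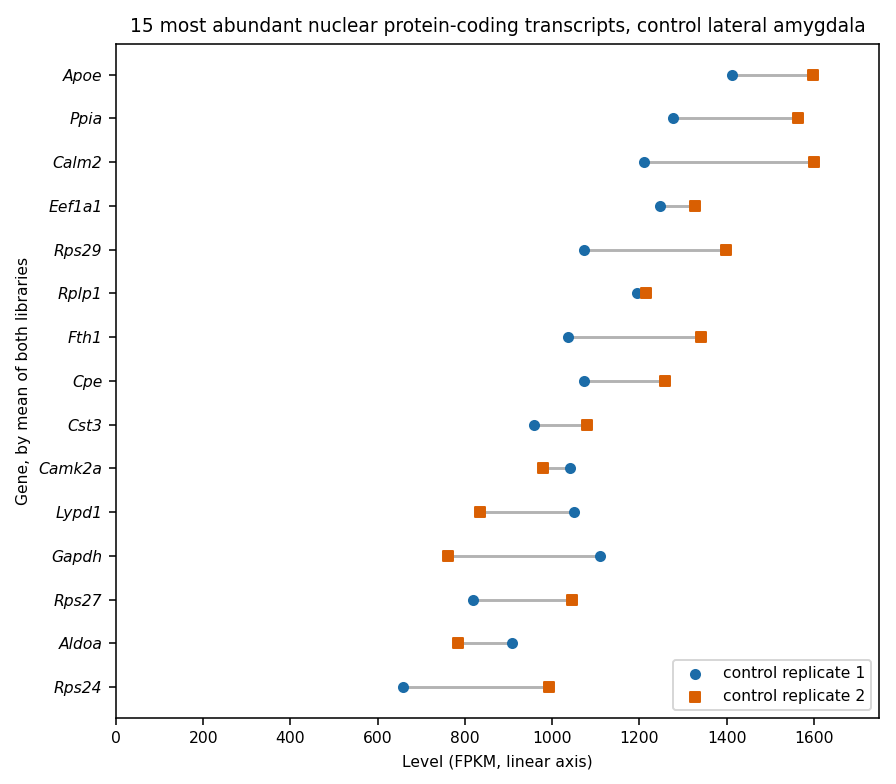
The 15 protein-coding nuclear genes with the highest mean FPKM in the 2 control libraries, with FPKM on the horizontal axis and 1 gene per line. The points show replicate 1 and replicate 2; Apoe leads at 1413 and 1599 FPKM, and Gapdh is among the genes that lie lower in replicate 2.

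Messenger RNAs of the mitochondrial chromosome exceeded every nuclear transcript of the protein-coding class. The 13 mitochondrial protein genes, all of which encode subunits of the respiratory chain or of ATP synthase, ranged from 2535 to 39685 FPKM in replicate 1 and from 4207 to 59791 FPKM in replicate 2. All 13 were higher in replicate 2, by 1.39-fold to 1.90-fold as ratios of FPKM, with a median of 1.61-fold. The highest listed value was that of mt-Atp8, an ATP synthase subunit, at 39685 and 59791 FPKM. Its reading frame is 204 bases long and overlaps that of mt-Atp6, which was listed at 6331 and 11679 FPKM. The part of the short length of mt-Atp8 in its value was not tested. This value also enters the mitochondrial share of the summed FPKM. All genes of the mitochondrial chromosome together summed to 118616 FPKM in replicate 1 and 190008 FPKM in replicate 2. The mitochondrial ribosomal RNAs, mt-Rnr1 at 3281 and 7079 FPKM and mt-Rnr2 at 3034 and 5971 FPKM, were likewise higher in replicate 2.

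Nuclear genes of oxidative phosphorylation, a list added after values were seen, were detected in 72 of 72 cases, 71 of them at 10 FPKM or more in both libraries. Their median was 108 and 113 FPKM, and relative to the median difference it lay 0.11 higher in replicate 2 on the log2 scale. The nuclear partners were thus much closer between the libraries than the mitochondrial genes.

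A block of 7 annotated pseudogenes on chromosome 1, between 24611535 and 24616197 in mm10, was listed at levels that matched those of mitochondrial genes. In a blastn alignment of the annotated transcripts, 5 of the 7 were identical to a mitochondrial gene over the whole aligned length. Gm28661, for instance, was identical to mt-Co2 over 681 bases, and Gm28437 to mt-Co3 over 783 bases. Gm28661 was listed at 8338 and 13490.0 FPKM, and mt-Co2 at 8290 and 13421 FPKM.

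For Gm28661, Gm28437, Gm10925, Gm10222 and Gm28438, the level of the copy was between 100.1% and 101.6% of that of its mitochondrial counterpart in both libraries. Gm28439, which matches part of mt-Nd4, stood at 64.7% and 64.4%. Gm29216, which matches part of mt-Co1, stood at 60.5% and 64.0%. Reads of such copies and of the mitochondrial transcripts cannot be told apart where the sequences are identical. The levels of the copies and of their mitochondrial counterparts are therefore uncertain. The same limit holds for the mitochondrial share and for the order of the mitochondrial genes. Counted together, the mitochondrial chromosome and these copies held 29.2% and 41.1% of the summed FPKM.

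The similarity is shown for a stretch of 80 bases of Gm29216 and mt-Co1 as annotated by GENCODE M21, because a single base there separates a nuclear from a mitochondrial read. The capital marks the differing base, A1066T, counted from 1 at the first base of the mt-Co1 transcript, with the mitochondrial base first.
mt-Co1: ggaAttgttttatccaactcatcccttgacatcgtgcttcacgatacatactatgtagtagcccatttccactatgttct
Gm29216: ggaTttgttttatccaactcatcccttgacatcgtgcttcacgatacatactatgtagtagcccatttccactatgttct
The remaining 79 bases of this stretch are the same in both. Over the whole alignment of 483 bases the sequences were 99.8% identical.

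All 5 defining markers of the main cell classes were present, from excitatory neurons to microglia. Slc17a7, the vesicular glutamate transporter of cortical-type excitatory neurons, was measured at 373 and 303 FPKM (338 ± 49.5, SD, n = 2). Gad1, the enzyme that makes GABA, was measured at 101 and 88.5 FPKM (94.8 ± 8.90). The excitatory marker was thus higher than the inhibitory one in both libraries, by 3.69-fold and 3.43-fold, and the replicate ranges did not overlap.

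Glial markers covered a wide range of levels. Mbp, the myelin basic protein of oligodendrocytes, reached 392 and 492 FPKM (442 ± 70.7). Slc1a2, the main glutamate transporter of astrocytes, reached 213 and 249.8 FPKM (231 ± 25.9). Cx3cr1, the fractalkine receptor of microglia, was measured at 19.0 and 19.5 FPKM (19.2 ± 0.365).

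Among the 14393 genes with a mean of at least 1 FPKM, whose median was 9.31 FPKM, Mbp and Slc17a7 stood above 99.0% of genes, and Cx3cr1 above 71.1%. These are levels in whole tissue, where fewer cells of a type and less RNA per cell cannot be told apart, so marker ratios are not ratios of cells.

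Excitatory neuron markers were led by Camk2a, the postsynaptic calmodulin-binding protein Nrgn at 446 and 552 FPKM, and Slc17a7. The 12 listed genes had a median of 39.0 and 40.5 FPKM. The second vesicular glutamate transporter, Slc17a6, used mainly by subcortical neurons, was measured at 13.1 and 13.8 FPKM, so Slc17a7 exceeded it by 28.4-fold and 21.9-fold. Tbr1, a transcription factor of pallial projection neurons, was present at 18.8 and 19.5 FPKM.

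Genes shared by all neurons were high, with a median of 150.1 and 162 FPKM over 11 markers. Syp, synaptophysin of synaptic vesicles, was measured at 428 and 356 FPKM, and Map2, a microtubule protein of dendrites, at 335 and 395 FPKM. Neurofilament genes were graded by subunit size, with the light chain Nefl at 102 and 120.1 FPKM, the medium chain Nefm at 29.0 and 43.5 FPKM and the heavy chain Nefh at 3.98 and 5.78 FPKM. None of these 3 chains overlapped another between the libraries.

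Inhibitory neuron markers were all detected, 18 of 18 at 1 FPKM or more in both libraries, with a median of 14.5 and 13.4 FPKM. The peptides of interneuron classes differed widely in level. Sst, somatostatin, led at 224 and 212 FPKM and exceeded Gad1 itself. Vip, the vasoactive intestinal peptide, was measured at 24.7 and 30.2 FPKM. Pvalb, the calcium-binding protein of fast-spiking interneurons, was measured at 6.49 and 8.80 FPKM, and Lhx6, a transcription factor of interneurons from the medial ganglionic eminence, at 4.71 and 4.44 FPKM. The order Sst, Vip, Pvalb was the same in both libraries and its neighbours did not overlap.

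Astrocyte markers were uniformly detected, 18 of 18, with a median of 34.7 and 31.5 FPKM. Clu, the secreted chaperone clusterin, led at 460.4 and 492 FPKM. Glul, which turns glutamate into glutamine, was measured at 293 and 383 FPKM and Aldoc, a glycolytic aldolase enriched in astrocytes, at 310.1 and 326 FPKM. Gfap, the intermediate filament that rises in reactive astrocytes, was far lower at 16.9 and 18.3 FPKM.

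Myelin genes followed Mbp in steps. Mobp, a further myelin protein, was measured at 88.0 and 132 FPKM, and Cnp, an enzyme of the myelin sheath, at 48.7 and 55.2 FPKM. The list of 15 oligodendrocyte markers had a median of 23.5 and 26.2 FPKM, and all 15 were detected. Markers of their precursors were lower, with a median of 3.41 and 3.39 FPKM over 8 genes, led by Pdgfra, the platelet-derived growth factor receptor, at 14.2 and 14.8 FPKM. The order of the astrocyte and oligodendrocyte classes depended on the summary. Slc1a2 was 0.544 and 0.508 of Mbp, a mean ratio of 0.526, whereas the median of the astrocyte list was 1.34 times that of the oligodendrocyte list.

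Microglial genes were detected without exception among 20 listed, with a median of 14.6 FPKM in each library. The cathepsin Ctss, at 55.5 and 64.5 FPKM, and the purinergic receptor P2ry12, at 49.1 and 44.0 FPKM, were among the highest. Trem2, a lipid-sensing receptor of microglia, was measured at 7.14 and 6.97 FPKM. The 3 chains of complement component C1q lay close together, with C1qa at 36.7 and 31.4, C1qb at 31.5 and 29.2 and C1qc at 28.0 and 26.2 FPKM.

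Vascular genes were lower than the astrocyte, oligodendrocyte and microglial lists in median, and their medians were higher in replicate 1. The endothelial list of 18 had a median of 7.20 and 4.29 FPKM, with 16 detected in both. Cldn5, the tight-junction protein of brain endothelium, was measured at 9.06 and 4.02 FPKM. Mural cell markers, of pericytes and smooth muscle, had a median of 1.07 and 0.590 FPKM over 12 genes, of which 5 were detected in both libraries. Vtn, vitronectin, which pericytes secrete in brain, was measured at 16.1 and 6.89 FPKM, and all 12 mural markers were lower in replicate 2.

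Genes of the meninges and leukocytes were mostly under 1 FPKM, and red blood cell genes were higher. Of 10 meningeal fibroblast genes, 8 were under 1 FPKM in both libraries, and the collagen gene Col1a1 was at 0.0937 and 0.110 FPKM. Of 13 choroid plexus and ependyma genes 8 were under 1 FPKM in both libraries, with Rarres2, the chemerin gene, highest at 12.3 and 13.02 FPKM and Ttr, transthyretin, the leading transcript of choroid plexus, at 1.09 and 2.39 FPKM. The 6 erythroid genes had a median of 15.4 and 16.2 FPKM. Among the haemoglobin genes, Hbb-bs was at 35.2 and 38.6 FPKM and Hba-a2 at 26.8 and 31.5 FPKM, although reads of the near-identical copies Hba-a1 and Hba-a2 cannot be assigned with certainty. Among 13 leukocyte and border macrophage genes, the T cell gene Cd3e and the neutrophil genes S100a9 and Ly6g were listed at 0 in both libraries, and the pan-leukocyte gene Ptprc, which microglia also express, was the highest at 0.968 and 1.49 FPKM.

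**Figure D2:**
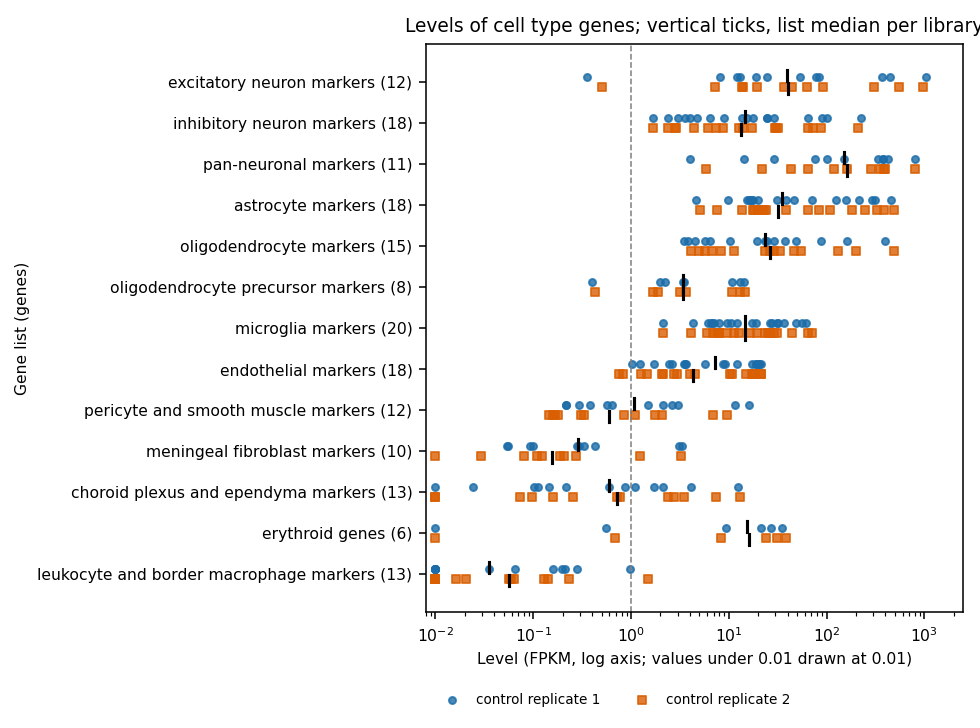
Levels of cell type marker genes in the control libraries, in FPKM on a log axis with 1 line per marker list; points are genes in each library, vertical ticks are list medians and the dashed line is at 1 FPKM. The pan-neuronal, excitatory, astrocyte and oligodendrocyte lists lie highest, and the fibroblast, choroid and leukocyte genes lie mostly below 1 FPKM.

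The label of the tissue was compared with genes of the lateral and basal amygdala and of the neighbouring regions. Besides Lypd1, the amygdalar list held Lmo3, a LIM-only transcription cofactor, at 173 and 153 FPKM. Grp, gastrin-releasing peptide, a transmitter of lateral amygdala principal neurons, was measured at 75.8 and 78.4 FPKM. Of the 8 genes listed, 7 were above 10 FPKM in both libraries and the median was 40.2 and 47.6 FPKM, the highest among the 9 regional lists in both. The lists were chosen with earlier results of these data known, and Neurod6 of this list is also an excitatory neuron marker. The rank is therefore a description and does not test the tissue label.

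The exception in the amygdalar list was Rspo2, a secreted Wnt agonist that marks some principal neurons of the basolateral complex. It was measured at 0.963 FPKM in replicate 1, with deposited bounds of 0.736 and 1.19, and at 3.36 FPKM in replicate 2, with bounds of 2.96 and 3.76. The bounds did not overlap, so the libraries differed in this gene by more than the deposited error. It was the only gene of the regional lists to lie 2-fold or more above the median difference in replicate 2, where 1.16% of all 14393 genes did so.

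Genes of the central amygdala were lower, with a median of 3.14 and 2.46 FPKM over 7 genes. Prkcd, the protein kinase that marks a class of central amygdala neurons, was measured at 3.14 and 2.46 FPKM, and Tac2, the neurokinin B precursor, at 7.15 and 7.74 FPKM. Isl1, a transcription factor of the medial part of the central nucleus and of striatal progenitors, was listed at 0 in both libraries. Meis2, a homeobox gene with wider telencephalic expression, was the highest of the list at 24.2 and 23.8 FPKM.

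The intercalated cell clusters, GABAergic islands around the basolateral complex, were represented by Tshz1 at 12.7 and 11.7 FPKM and Foxp2 at 2.89 and 3.43 FPKM. Both encode transcription factors of those cells. Striatal genes differed widely, with a median of 4.75 and 4.59 FPKM over 12 genes. Of these, 8 were detected in both libraries, 5 were at 10 FPKM or more in both and 3 were under 1 FPKM in both. Penk, the enkephalin precursor, stood at 87.2 and 87.7 FPKM, whereas the striatopallidal receptors Drd2, at 0.158 and 0.358 FPKM, and Adora2a, at 0.516 and 0.609 FPKM, were below 1 FPKM in both libraries. Drd1, the dopamine receptor of striatonigral neurons and of intercalated cells, was at 6.43 and 6.86 FPKM.

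Cortical and claustral lists had the next highest medians after the amygdalar list. These were 11.9 and 13.5 FPKM over 8 cortical genes, and 10.5 and 8.17 FPKM over 6 claustral genes. Single genes were far higher. Rprm, a cell-cycle regulator expressed in deep cortical layers, was measured at 204 and 156 FPKM, and Cux2, a transcription factor of upper layers, at 35.5 and 19.3 FPKM. Synpr, a synaptic vesicle protein of the claustrum among other sites, was at 118 and 87.8 FPKM, and Nr4a2, a nuclear receptor that marks the claustrum, at 2.37 and 3.28 FPKM. All of these genes have known expression outside the region that names their list, so the lists overlap in what they can report.

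Hippocampal, thalamic and hypothalamic lists were the lowest of the regional lists, with medians of 1.30 and 1.28, 1.47 and 1.70, and 0.199 and 0.202 FPKM. Within the hippocampal list, Wfs1, an endoplasmic reticulum protein expressed in hippocampal field CA1 and elsewhere, was highest at 64.5 and 48.4 FPKM, and Prox1, a transcription factor of dentate granule cells, was at 2.04 and 1.88 FPKM. Of 12 hypothalamic genes, 9 were under 1 FPKM in both libraries. The orexin gene Hcrt and the vasopressin gene Avp were listed at 0 in replicate 1 and at 0.0831 and 0.0848 FPKM in replicate 2.

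**Figure D3:**
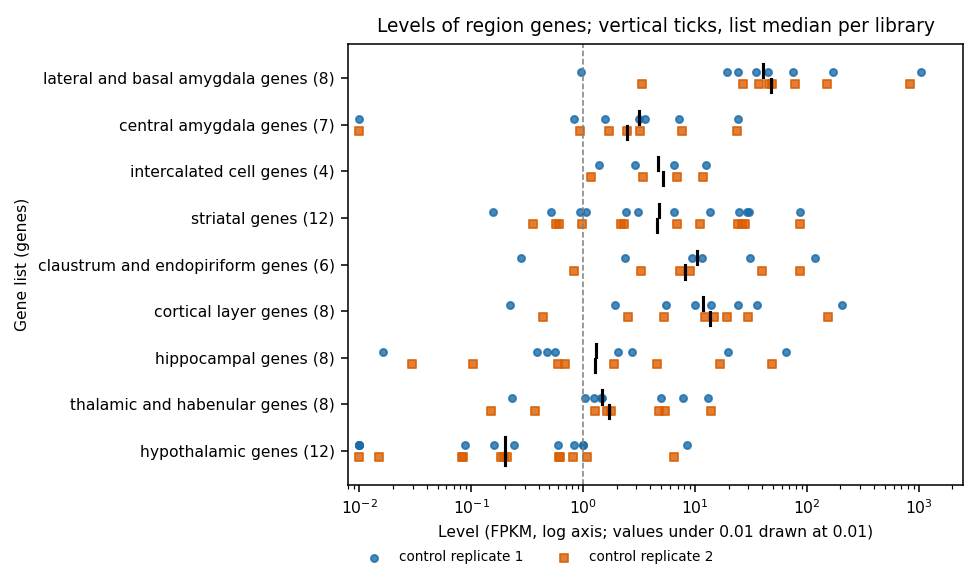
Levels of genes of the lateral and basal amygdala and of neighbouring regions in the control libraries, in FPKM on a log axis with 1 line per list; points are genes in each library, vertical ticks are list medians and the dashed line is at 1 FPKM. Lypd1, at 1051 and 834 FPKM, is the highest gene of all lists, and most hypothalamic genes lie below 1 FPKM.

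Receptor and channel genes, together with the genes of neuropeptides, peptide processing and transmitter synthesis, were next ranked within 29 families of 275 members, 73 of which were under 1 FPKM in both libraries. The same gene led in both libraries in 26 of the 29 families. Of 246 pairs of neighbours in the order of means, 91 had replicate ranges that overlapped, so those neighbours were not ordered by these data.

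AMPA receptor subunits, which form the channels of fast excitation, were ordered Gria2, Gria1, Gria3, Gria4 with no overlap between neighbours. Gria2, the subunit that limits calcium entry, was measured at 167 and 155 FPKM. Gria1, at 107 and 92.8 FPKM, was lower than Gria2 by a ratio of 1.57 and 1.67. Gria3 followed at 68.6 and 65.7 FPKM, and Gria4 stood at 23.3 and 23.4 FPKM.

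Auxiliary AMPA receptor subunits were led by Cnih2, a cornichon that slows channel closing, at 85.7 and 73.2 FPKM. Cacng3, a transmembrane regulatory protein of the same receptors, followed at 73.0 and 56.3 FPKM, and its relative Cacng8 was at 25.3 and 23.8 FPKM. Cacng2, stargazin, the founding member of that group, stood lower at 8.42 and 10.3 FPKM.

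NMDA receptors, which need both glutamate and depolarisation to open, showed the obligatory subunit Grin1 first, at 67.8 and 53.3 FPKM. Grin2b, at 19.6 and 20.3 FPKM, exceeded Grin2a, at 9.12 and 10.5 FPKM, by 2.15-fold and 1.93-fold. Grin2c and Grin2d were lower at 6.75 and 5.0004 and at 2.31 and 2.09 FPKM, and Grin3b was at 0.0572 and 0.0119 FPKM. No neighbours of this family overlapped.

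Kainate receptor subunits were led by Grik5, an auxiliary high-affinity subunit, at 46.2 and 37.1 FPKM, before Grik2 at 30.3 and 20.5 FPKM. Among metabotropic glutamate receptors, the postsynaptic receptor Grm5 led at 45.7 and 36.1 FPKM, with the presynaptic receptor Grm7 at 21.7 and 19.0 FPKM. Grm6, the receptor of retinal bipolar cells, was listed at 0 in both libraries. Scaffold genes of the postsynaptic density were all detected, 13 of 13, with Dlg4, which encodes PSD-95, at 223 and 174 FPKM and Dlgap1 at 130.0 FPKM in each.

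GABA-A receptors mediate fast inhibition and combine alpha, beta and gamma or delta subunits. Gabra3, an alpha subunit, was among the highest at 104 and 107.0 FPKM. Gabra2, at 61.5 and 61.4 FPKM, and Gabrb2, at 62.7 and 42.7 FPKM, overlapped and were not ordered. Gabrd, the delta subunit of extrasynaptic receptors, was at 12.2 and 7.56 FPKM. Gabra6, the cerebellar granule cell subunit, and Gabrp were listed at 0 in both libraries. Of 19 subunits, 13 were detected. The metabotropic receptor subunit Gabbr1 was higher than Gabra3 in both libraries, at 210.6 and 213 FPKM, with its partner Gabbr2 at 78.5 and 74.6 FPKM.

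Receptors for monoamines were low by comparison, with single genes standing out. Htr2c, a Gq-coupled serotonin receptor, was at 35.5 and 36.6 FPKM, and the next serotonin receptor, Htr1b, was at 4.13 and 3.38 FPKM. Among dopamine receptors, Drd1 was the only 1 of 5 to reach 1 FPKM, and it exceeded Drd2 by 40.7-fold and 19.1-fold. Adrenergic receptors were all under 10 FPKM, led by Adrb1 at 5.05 and 6.24 FPKM.

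Acetylcholine receptors were led by the muscarinic receptor Chrm1, at 60.3 and 48.7 FPKM, and by the nicotinic subunit Chrnb2, at 12.7 and 10.9 FPKM. Of 13 nicotinic subunits, 10 were under 1 FPKM in both libraries. Cnr1, the cannabinoid receptor of axon terminals, was at 28.6 and 29.8 FPKM. Oprl1, the nociceptin receptor, was the highest opioid-family receptor at 20.6 and 14.7 FPKM, and the mu receptor Oprm1 was at 1.39 and 1.18 FPKM.

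Receptors for peptides and steroids known from stress circuits were also ranked. Adcyap1r1, the receptor for the peptide PACAP, led at 41.1 and 34.0 FPKM, before Cckbr, the brain receptor for cholecystokinin, at 21.8 and 18.3 FPKM. Crhr1, the receptor for corticotropin-releasing hormone, was at 3.48 and 1.89 FPKM. The glucocorticoid receptor gene Nr3c1, at 14.8 and 13.9 FPKM, exceeded the mineralocorticoid receptor gene Nr3c2, at 6.94 and 5.02 FPKM, in both libraries. Ntrk2, the receptor for BDNF, was at 91.9 and 103 FPKM while Bdnf itself was at 3.47 and 4.36 FPKM.

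Grpr, the receptor for gastrin-releasing peptide, stood at 0.408 and 0.220 FPKM beside its ligand Grp at 75.8 and 78.4 FPKM. In the amygdala this receptor is known from interneurons. The ligand was above the 93rd percentile of genes with a mean of 1 FPKM or more, and the receptor was below the 1 FPKM limit in both libraries.

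Voltage-gated sodium channels, which carry the action potential, were led by Scn2a at 57.5 and 59.0 FPKM. Scn8a, the channel of the axon initial segment and nodes, followed at 24.6 and 19.2 FPKM. Scn1a, typical of fast-spiking interneurons, was at 12.2 and 10.1 FPKM and overlapped Scn3a at 12.7 and 9.03 FPKM. The muscle channel Scn4a was listed at 0 in both libraries.

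Potassium channel families differed in how clearly they were ordered. In the voltage-gated Kv1 to Kv4 families, Kcnc1 led in replicate 1 at 22.5 FPKM and Kcna6 in replicate 2 at 21.0 FPKM, and 10 of 14 pairs of neighbours overlapped. Kcnq3, a subunit of the M-current, was at 19.9 and 22.1 FPKM. Kcnj4, an inward rectifier, was at 47.2 and 25.4 FPKM, so the lead passed to Kcnj9 at 38.4 and 29.0 FPKM in replicate 2. Kcnma1, the large-conductance calcium-activated channel, led its family at 22.7 and 19.2 FPKM, where 0 of 4 pairs overlapped.

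The leading calcium channels of the alpha1 class were not ordered. Cacna1e, the R-type channel, was at 21.6 and 19.4 FPKM, Cacna1b, the N-type channel, at 23.2 and 15.4 FPKM, and Cacna1a, the P/Q-type channel, at 20.2 and 15.7 FPKM. The ranges of these neighbours overlapped. Among HCN channels, which carry the hyperpolarisation-activated current, Hcn2 led at 11.05 and 11.7 FPKM.

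**Figure D4:**
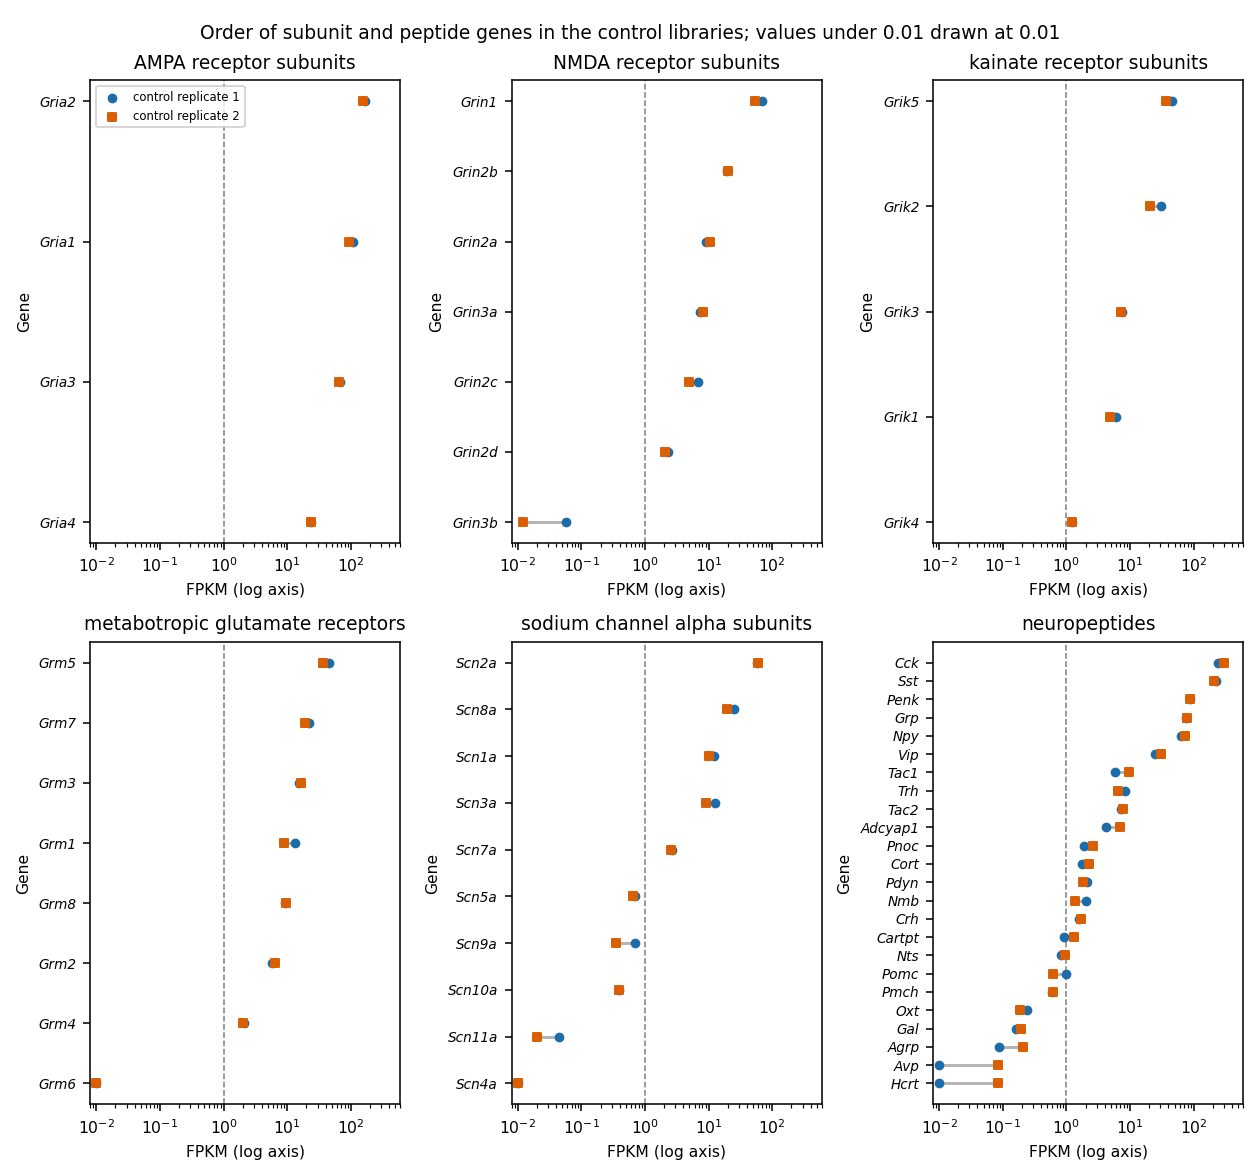
Levels of the members of 5 receptor and channel families and of the neuropeptides in the control libraries, in FPKM on log axes, ordered by mean, with a point for each replicate and a dashed line at 1 FPKM. AMPA receptor subunits are ordered without overlap from Gria2 at 167 and 155 FPKM to Gria4 at 23.3 and 23.4 FPKM.

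Neuropeptide precursors ranged widely, down to levels listed at 0 in replicate 1. Cck, cholecystokinin, led at 238 and 299 FPKM (268 ± 42.8), and Sst followed without overlap, at 224 and 212 FPKM (218 ± 8.85). Penk and Grp followed, and Npy, neuropeptide Y, was at 64.2 and 72.0 FPKM. The leading 6 genes, down to Vip, kept their order without overlap. Crh, the precursor of corticotropin-releasing hormone, was at 1.58 and 1.71 FPKM, and of 24 precursors 15 were detected in both libraries.

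Sequences upstream of the start of 4 of the leading precursor genes are shown, because cyclic AMP is known to drive Sst and Vip through a defined element there. Each run is the 250 bases before the annotated start in RefSeq (GRCm38.p6), 5′ to 3′ on the strand of the gene. Capitals mark matches to TGACGTCA (the cyclic AMP response element), to its 5-base part TGACG or the complement CGTCA, and to TATAAA. All motifs were searched on both strands, and TGACG is contained in TGACGTCA.
Cck, chr9:121495695-121495944, minus strand: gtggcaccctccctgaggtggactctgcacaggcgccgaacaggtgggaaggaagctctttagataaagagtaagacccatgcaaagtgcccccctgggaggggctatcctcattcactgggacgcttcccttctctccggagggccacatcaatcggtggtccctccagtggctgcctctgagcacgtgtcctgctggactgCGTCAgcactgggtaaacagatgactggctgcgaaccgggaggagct
Sst, chr16:23890845-23891094, minus strand: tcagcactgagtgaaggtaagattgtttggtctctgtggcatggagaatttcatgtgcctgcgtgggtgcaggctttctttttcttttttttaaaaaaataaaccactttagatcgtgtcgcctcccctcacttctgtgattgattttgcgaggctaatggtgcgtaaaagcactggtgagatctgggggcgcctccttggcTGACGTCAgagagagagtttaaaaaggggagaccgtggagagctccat
Npy, chr6:49822460-49822709, plus strand: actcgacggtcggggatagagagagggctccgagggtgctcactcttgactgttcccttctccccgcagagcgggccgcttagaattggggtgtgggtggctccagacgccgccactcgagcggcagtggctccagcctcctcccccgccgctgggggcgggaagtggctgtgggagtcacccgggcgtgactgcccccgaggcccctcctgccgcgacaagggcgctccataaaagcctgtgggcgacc
Vip, chr10:5638968-5639217, plus strand: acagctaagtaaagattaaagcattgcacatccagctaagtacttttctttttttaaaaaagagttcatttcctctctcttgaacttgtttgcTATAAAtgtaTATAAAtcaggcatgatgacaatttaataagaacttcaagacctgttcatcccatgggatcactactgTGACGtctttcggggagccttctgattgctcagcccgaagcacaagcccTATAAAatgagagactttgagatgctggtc
The Sst window held the full TGACGTCA starting 48 bases before the start. The Cck window held the shorter match 47 bases before it, the Vip window held it 79 bases before it, and the Npy window held none of the motifs.

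The Vip window also held TATAAA at 157, 147 and 30 bases before the start. Of 21 windows of 19 listed neuropeptide genes, 10 held TGACG and 2 held TGACGTCA, in Sst and Cartpt. Among all 32851 windows of the table, 17.8% held TGACG, 1.55% held TGACGTCA and 12.4% held TATAAA. A match describes letters in a window and does not show a bound site.

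Genes of the secretory pathway of peptides were high without exception. All 8 granin and processing genes were above 10 FPKM in both libraries, with Cpe first and Chgb, secretogranin I, at 157 and 159.8 FPKM. Genes that make or carry monoamines and acetylcholine were at the opposite end. Of 10, 8 were under 1 FPKM in both libraries, and Th, the rate-limiting enzyme of catecholamine synthesis, was at 0.259 and 0.0667 FPKM. Chat, which makes acetylcholine, was listed at 0 in replicate 1 and at 0.014 FPKM in replicate 2.

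Immediate early genes, which are transcribed within minutes of neuronal activity, were all detected in the control tissue, 12 of 12. Egr1 led at 31.2 and 29.2 FPKM, followed by Egr3 at 24.2 and 21.8 FPKM and Junb at 17.7 and 18.2 FPKM. Arc, whose product acts at active synapses, was at 8.07 and 6.72 FPKM. Fos was at 3.42 and 2.71 FPKM and Npas4 at 2.53 and 2.44 FPKM, so the family spread over an order of magnitude in both libraries.

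Calmodulin and its kinase were abundant as a group. Calm3, which encodes calmodulin as Calm2 does, was at 563 and 728 FPKM. Camk2a exceeded Camk2b, at 212 and 172 FPKM, by 4.92-fold and 5.70-fold. Camk2n1, an endogenous inhibitor of the kinase, was at 424 and 518 FPKM, higher than Camk2b in both libraries.

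Small proteins with an IQ motif, through which calmodulin can be bound, were also high except for Pcp4l1. Nrgn, neurogranin of dendritic spines, led the 4 listed, and Gap43, its presynaptic relative, was at 214 and 275 FPKM. Pcp4, a modulator of calcium binding to calmodulin, was at 169 and 270.0 FPKM, and its relative Pcp4l1 was at 20.2 and 24.8 FPKM. All 4 were higher in replicate 2.

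Long noncoding transcripts held 1.52% and 1.30% of the summed FPKM. Rian, at 485 and 388 FPKM, and Meg3, at 482 and 190.4 FPKM, are transcripts of the imprinted Dlk1-Dio3 domain on chromosome 12. Gas5, a host gene of small nucleolar RNAs, was at 292 and 332 FPKM.

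The 2 libraries were compared gene by gene over the 14393 genes with a mean of at least 1 FPKM. Across these genes Pearson's r of log2(FPKM + 1) was 0.973 and Spearman's rho was 0.970, given as descriptions, since genes share a library and are not independent. The median absolute difference, uncentred, was 0.22 on the log2 scale, and 86.7% of genes lay within 0.50 of the median difference. At 2-fold or more relative to that median, 167 genes (1.16%) were higher and 149 genes (1.04%) were lower in replicate 2. With 1 group of 2 libraries there is no test of these differences.

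Genes that stood apart were unevenly spread over gene classes. Of 12309 protein-coding genes 0.682% lay 2-fold or more apart, against 6.08% of 904 long noncoding genes and 15.6% of 754 processed pseudogenes. The 2 pseudogenes Gm10060, listed at 8747 and 830.0 FPKM, and Gm21769, listed at 1288 and 141 FPKM, were singled out after their values were seen. Both are annotated as processed pseudogenes, a class whose reads can belong to parent genes.

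Among 6481 protein-coding nuclear genes with a mean of at least 10 FPKM, 20 were 2-fold or more higher and 18 lower in replicate 2. Lrrc17, a secreted leucine-rich repeat protein, was at 19.7 FPKM in replicate 1, with bounds of 18.2 and 21.3, and at 785 FPKM in replicate 2, with bounds of 751 and 818. Elp6, a subunit of the elongator complex, was at 25.4 and 305 FPKM. Lzts1, a leucine zipper protein of the postsynaptic density, was at 31.8 and 859 FPKM, but its deposited bounds in replicate 2 ran from 0 to 1964. For Lrrc17 and Elp6 the bounds were separate, and for Lzts1 they overlapped.

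In the opposite direction, Ece1, the endothelin-converting enzyme, was at 90.2 and 22.2 FPKM. Auts2, a neurodevelopmental gene, was at 49.0 and 15.5 FPKM, and its bounds of 13.2 and 84.7 in replicate 1 overlapped those of 11.1 and 19.8 in replicate 2. Cacnb4, a calcium channel beta subunit, was at 61.5 and 24.3 FPKM, and Rreb1, a zinc finger transcription factor, at 29.6 and 10.03 FPKM. The imprinted transcript Meg3 was also lower in replicate 2, by -1.23 relative to the median difference.

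Some lists leaned in a common direction between the libraries, whereas all genes together split evenly around the median difference by its definition. Of the 15 oligodendrocyte markers, 13 lay above the median difference, with a list median of 0.37 on the log2 scale. Of the endothelial markers with a mean of at least 1 FPKM, 13 of 17 lay below it, with a median of -0.13. Of 6 such mural markers 6 lay below it, with a median of -0.31, and of 8 calcium channel alpha1 genes 7 did, with a median of -0.38. The 8 granin and processing genes all lay above it, with a median of 0.33. A lean was not particular to these lists. Of 18 astrocyte markers 14 lay above the median difference, with a median of 0.24, and of 11 pan-neuronal markers 8 did, with a median of 0.22. Of 13 peptide receptor genes of stress and fear circuits 10 lay below it, with a median of -0.13. All genes with a mean of 100 FPKM or more had a median of 0.11.

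The difference between the libraries also followed base composition. Across 12296 protein-coding genes the rank correlation of the difference with GC content was -0.35. Relative to the median difference, the median was 0.12 in the fifth of genes lowest in GC. It ran through 0.08, 0.00 and -0.08 to -0.17 in the fifth highest in GC. With transcript length the rank correlation was -0.11. The part of GC content, of the mitochondrial share or of myelin and vessel content in the differences of single genes was not tested.

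**Figure D5:**
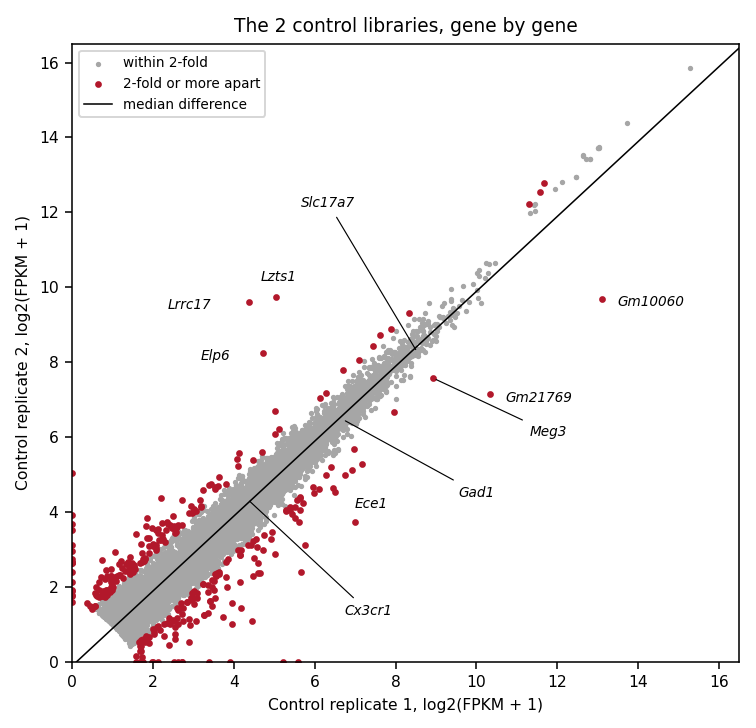
Levels of 14393 genes in control replicate 1 (horizontal) and replicate 2 (vertical), both as log2(FPKM + 1), with the line at the median difference of -0.11. The coloured points are the 167 higher and 149 lower genes at 2-fold or more, and Lrrc17, Lzts1 and Elp6 lie far above the line.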

How the data were processed

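RNA of lateral amygdala tissue was sequenced, and the 2 libraries labelled control were used. The values are gene-level FPKM as deposited by the authors, with lower and upper confidence bounds per the file headers. The submitters' processing notes name bcl2fastq 2.19.1.403, TopHat2 2.1.1, Cufflinks 2.2.1 and mm10. Settings, strand handling and annotation release were not given in the sources used here. Read totals are unknown, and the number of libraries limits the precision.

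The members and gene lists were chosen with earlier results of these data known. Of 50539 entries per library, 92 spike-in entries were left out, and entries of 48 repeated gene identifiers were summed, giving 50383 genes. Genes with a failed estimate in a library (4 genes) were left out, as were small RNA genes (271 at a mean of 1 FPKM or more). Of the identifiers, 50160 matched GENCODE M21, 46613 with the same start and end. Gene types and strands come from it, and gene coordinates are those deposited with the values. Of 519 listed genes in 54 lists, 518 were matched by symbol, and of repeated symbols the identifier with the higher mean was used. Lists of ribosomal and oxidative phosphorylation genes were added after values were seen.

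Levels were described as FPKM per library with mean and SD. Libraries were compared on log2(FPKM + 1) over genes with a mean of at least 1 FPKM, centred on the median difference. Genes named for level are the 25 highest protein-coding nuclear genes and the list members. Genes named for standing apart come from the 10 protein-coding nuclear genes per direction with the largest difference at a mean of at least 10 FPKM. No test was made, since 1 group of 2 libraries gives none. Neighbours in a family were called overlapping where the ranges of their 2 values met. Copies were aligned with blastn 2.17.0 and upstream windows of RefSeq were searched on both strands. The calculation was tested on simulated data. Python 3.11.15, numpy 2.4.6, pandas 2.3.3, scipy 1.17.1 and matplotlib 3.10.9 were used. Alternatives were a pseudocount of 0.1, a mean of at least 5 FPKM, no filter, small RNA genes kept, nuclear scaling, list medians and each replicate alone. For detection, a minimum of 0.5 FPKM and a lower bound above 0 were also used. After the data were seen, 3 further ones were added. Some genes of the lists are not reported here by name.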

Additional observations from a re-analysis of the deposited data

Results flagged for a closer look

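Synthetic spike-in sequences, which the labels do not mention, carried values in both control libraries, outside the measurement of mouse genes. Their FPKM summed to 117 in control replicate 1 and to 125 in control replicate 2. Of 92 sequences, 31 and 28 were above 0, and for 17 in each library the deposited lower bound was above 0.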

How the results depend on the processing

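Pearson's r of the 2 libraries was 0.973, and it was 0.945 with small RNA genes kept, 0.960 with a pseudocount of 0.1 and 0.987 without a filter on low values. The count of genes 2-fold or more apart was 316, and it was 505 with small RNA genes kept, 629 with a pseudocount of 0.1, 163 at a mean of at least 5 FPKM and 83 over protein-coding nuclear genes alone, an alternative chosen after seeing the data. The mitochondrial share of 26.1% was 35.2% with the chromosome 1 copies counted in, also chosen after seeing the data, and it has no value on the nuclear scale. The ratio of Slc17a7 to Gad1 of 3.56 was 2.86 from list medians, and the ratio of Slc1a2 to Mbp of 0.526 was 1.34. The median difference of -0.11 was -0.13 with nuclear scaling and -0.05 without the copies. The count of 13802 detected genes was 15499 at a minimum of 0.5 FPKM and 17392 where the deposited lower bound was above 0.

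From each replicate alone, the number of genes at 1 FPKM or more ran from 14233 to 14475, the mitochondrial share from 21.7% to 30.4%, the first ratio from 3.43 to 3.69 and the second from 0.508 to 0.544. No paired analysis was possible because 1 group was used and no groups were compared. The depth is unknown, so low levels carry only the deposited bounds.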

Other observations

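Sequence features of the upstream windows differed with the level of the gene in the control libraries. Among protein-coding genes the share of windows with TGACG was 9.10% at a mean under 0.1 FPKM, 15.9% at 0.1 to 1, 23.6% at 1 to 10, 27.7% at 10 to 100 and 32.0% at 100 FPKM or more. The share with TATAAA ran 24.4%, 10.2%, 6.99%, 5.38% and 8.52% over the same levels, and the median number of CpG dinucleotides per window was 2, 6, 14, 17 and 15. TGACG itself holds a CpG, and the windows were not compared at equal CpG content. Immediate early genes had 12 windows from 8 genes, 5 of them alternative windows of Egr2, and 10 held TGACG, 3 of those from Egr2. No windows were available for the immediate early genes Egr1, Egr3, Arc and Ier2. Of 13 windows of 11 oligodendrocyte genes 0 held TGACG, and of 19 windows of 15 GABA-A receptor subunit genes 1 did. Among all 32851 windows the share was 17.8%, so few matches would be looked for in lists of this size.

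Cytosolic ribosomal protein genes leaned towards replicate 2. Of the 78 with a mean of at least 1 FPKM, 58 lay above the median difference, with a list median of 0.23 on the log2 scale. The list was added after its values were seen.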
